A study of Mus musculus with 9 samples.

Results

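The genes described here are 39 genes of the cell cycle and of DNA replication, taken by symbol from a fixed list, out of 43629 genes in the deposited count table. The list was chosen with earlier results of these data known. They comprise 19 genes used before or during S phase, when DNA is copied, and 20 genes used in G2 phase and mitosis, when copied chromosomes are separated. In Dp1Tyb cells 38 of the 39 genes had a lower fitted level than in WT cells, against 49.0% of all genes tested. All were measured in the same 9 cultures, so they are not 39 separate observations. Between WT replicate 1 and Dp1Tyb replicate 1, which form a set by their labels, 15 of the 39 were lower in Dp1Tyb, against 51.9% of all genes. Among the other cultures 35 were lower, against 49.8%. The median log2 fold change of the 39 genes was -0.18 (-0.101 without Dp1Tyb replicate 4). None of them was called as differentially expressed by edgeR or DESeq2, against 0.165% and 0.415% of all genes. Levels overlapped between the genotypes for every one of the 39 genes. Among all genes tested, 0.673% had every Dp1Tyb culture below every WT culture, and 0.686% had every one above. At shares this low, the lack of calls and of separation does not set the 39 genes apart from all genes. A single Dp1Tyb culture, replicate 4, held the lowest level of 33 of the 39 genes, against 8.33% of all genes tested.

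A dividing cell first loads the MCM helicase onto replication origins with the help of CDC6 and CDT1, a step called licensing, and later fires those origins and copies its DNA with helicase cofactors, primase and the sliding clamp PCNA. Many of these genes are transcribed at the start of S phase under E2F transcription factors. Entry into mitosis depends on cyclin B and the kinase CDK1, and chromosome separation on kinases such as PLK1 and Aurora B, on motor proteins and on the anaphase-promoting complex (APC/C), a ubiquitin ligase. Many genes of this later group are transcribed in G2 phase through a promoter element called CHR, bound by the DREAM and MuvB complexes, often beside CCAAT boxes bound by NF-Y. In a fibroblast culture, which is not synchronised, the RNA of both groups is known to follow the share of cells that are cycling.

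RNA was measured in 9 cultures of mouse embryonic fibroblasts (MEFs), 4 WT and 5 Dp1Tyb, each grown from 1 E14.5 embryo, and the embryos of both genotypes were littermates. Dp1Tyb mice, a model of Down syndrome, carry a second copy in tandem of the stretch of chromosome 16 from *Lipi* to *Zbtb21*, so their cells have 3 copies of its genes, and all cultures share a strain label of C57BL/6J with 129P2 and received no treatment beyond passaging with trypsin. The study compared the genotypes to ask how the duplication alters transcription, and the cell cycle genes are examined here within that comparison. By their labels, WT replicate 1 and Dp1Tyb replicate 1 form one set, called the first here, and 3 WT and 4 Dp1Tyb cultures form another, called the second, and what a set is was not stated. Reads per culture assigned to genes numbered 24804539 to 30009361. None of the 39 genes lies in the duplicated region, and *Mcm4* and *Cdc45* lie on the same chromosome proximal to it.

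The cultures carried the RNA of fibroblasts. All 10 fibroblast markers on the list (among them *Col1a1*, *Pdgfra* and *Thy1*) were detected, with summed levels of 5682 to 7195 RPKM (counts scaled by the exon length of the gene and the total counts of the culture) in WT and 4750 to 7553 in Dp1Tyb cultures. Macrophage markers summed to 38.7 to 138.9 RPKM in WT and 10.9 to 193.4 in Dp1Tyb. Skeletal muscle markers summed to 4.18 to 41.7 RPKM in WT and 10.2 to 147.0 in Dp1Tyb, and of these 6 markers the regulators *Myod1* and *Myog* had no more than 3 counts in any culture. The 3 muscle markers that passed the filter on low counts were all higher in Dp1Tyb by fitted fold change. EdgeR called 0 of them and DESeq2 2, against 0.165% and 0.415% of all genes. The 2 were *Des*, an intermediate filament of muscle (log2 fold change 1.35), and *Myh3*, an embryonic myosin (3.30), both with an unadjusted p below 0.05 by edgeR. Of all 14567 genes tested, 198 were higher with such a p. *Myh3* had at most 2.04 normalised counts in WT and at least 3.86 in Dp1Tyb cultures, a separation upwards that held for 0.686% of all genes tested. The median of the 3 markers, relative to their WT means on the log2 scale, was -0.144 to 0.282 in WT and 0.281 to 3.561 in Dp1Tyb cultures. Endothelial markers summed to 0.943 to 1.84 RPKM and 0.81 to 2.50 RPKM, and epithelial markers to 5.02 to 6.64 and 4.75 to 6.62, in WT and Dp1Tyb respectively. Schwann cell and neural crest markers were the 1 list whose sums did not overlap between the genotypes, with 7.05 to 15.0 RPKM in WT and 2.00 to 6.66 in Dp1Tyb cultures. Of these 5 markers 4 passed the filter on low counts. All 4 were lower with an unadjusted p below 0.05 by edgeR, against 1.77% of all genes tested. EdgeR called 0 of them and DESeq2 3, against 0.165% and 0.415% of all genes. In 3 of them every Dp1Tyb culture lay below every WT culture, against 0.673% of all genes tested. The part of these other cells in the levels of the cell cycle genes was not tested.

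Short motifs were counted in the promoters of the 39 genes, as a description with no test. The RefSeq table for GRCm38.p6 gave a window, from 250 bases before to 50 bases after the transcription start, for 32 of the 39 genes, and had no entry for *Mcm4*, *Gins2*, *Ccne2*, *Ccna2*, *Aurkb*, *Kif20a* and *Foxm1*. The E2F motif was searched on both strands as the 4 words TTTCCCGC, TTTCGCGC, TTTGCCGC and TTTGGCGC. It was present in 6 of the 16 S-phase genes with a window (37.5%), in 1 of the 16 mitosis genes with a window (6.25%, *Cdk1*) and in 2.60% of all 27025 genes in the table. Where a gene had more than 1 window, a word in any of them counted. A further window of *Mcm7*, not shown, held neither an E2F nor a CHR word. Below, the windows of the 3 S-phase genes with the highest expression among those holding an E2F word are shown 5′ to 3′ on the strand of the gene, with each E2F word on either strand in capitals. In that of *Mcm6*, words on opposite strands overlap and form 1 longer run of capitals.
*Mcm6* (chr1:128359656-128359955, minus strand): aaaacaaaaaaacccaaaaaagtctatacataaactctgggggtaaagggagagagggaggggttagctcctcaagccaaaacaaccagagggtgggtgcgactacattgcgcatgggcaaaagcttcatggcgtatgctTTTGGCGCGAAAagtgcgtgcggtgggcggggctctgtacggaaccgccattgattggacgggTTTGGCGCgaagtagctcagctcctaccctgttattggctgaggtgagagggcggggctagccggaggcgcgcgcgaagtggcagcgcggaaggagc
*Mcm7* (chr5:138171834-138172133, minus strand): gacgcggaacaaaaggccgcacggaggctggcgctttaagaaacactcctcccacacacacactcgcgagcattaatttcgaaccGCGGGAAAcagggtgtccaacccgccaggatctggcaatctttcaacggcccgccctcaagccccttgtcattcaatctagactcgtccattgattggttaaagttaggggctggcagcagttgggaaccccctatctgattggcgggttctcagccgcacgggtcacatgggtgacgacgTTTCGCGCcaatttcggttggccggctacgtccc
*Mcm3* (chr1:20820263-20820562, minus strand): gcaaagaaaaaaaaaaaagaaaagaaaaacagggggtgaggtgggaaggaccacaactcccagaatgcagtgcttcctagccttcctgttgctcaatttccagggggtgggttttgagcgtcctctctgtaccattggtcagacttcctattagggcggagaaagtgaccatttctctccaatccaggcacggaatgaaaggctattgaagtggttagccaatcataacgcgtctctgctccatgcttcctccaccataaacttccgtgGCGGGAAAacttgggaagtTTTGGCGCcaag
Counted from the transcription start, the words begin at -110, -106 and -47 in *Mcm6*, at -165 and 17 in *Mcm7* and at 20 and 39 in *Mcm3*. All 6 S-phase genes with an E2F word, which also include *Mcm5*, *Cdc6* and *Cdt1*, encode licensing factors.

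The CHR motif, searched as TTTGAA or TTCGAA on both strands, was counted in the same windows. It was present in 13 of 16 mitosis genes with a window (81.2%), against 3 of 16 S-phase genes (18.8%) and 21.7% of all genes. A word this short is common, as the share over all genes shows, and TTCGAA reads the same on both strands. The CCAAT box was present in 15 of these mitosis genes (93.8%), in 11 of these S-phase genes (68.8%) and in 41.1% of all genes. Below, the windows of the 3 mitosis genes with the highest expression among those holding a CHR word are shown in the same way, with CHR words in capitals.
*Cdc20* (chr4:118437294-118437593, minus strand): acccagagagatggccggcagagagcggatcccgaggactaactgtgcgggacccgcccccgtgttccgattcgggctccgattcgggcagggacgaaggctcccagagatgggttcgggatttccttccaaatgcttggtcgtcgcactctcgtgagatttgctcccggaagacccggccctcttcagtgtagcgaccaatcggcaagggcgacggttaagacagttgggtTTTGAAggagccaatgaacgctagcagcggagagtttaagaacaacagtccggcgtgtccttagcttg
*Top2a* (chr11:99024140-99024439, minus strand): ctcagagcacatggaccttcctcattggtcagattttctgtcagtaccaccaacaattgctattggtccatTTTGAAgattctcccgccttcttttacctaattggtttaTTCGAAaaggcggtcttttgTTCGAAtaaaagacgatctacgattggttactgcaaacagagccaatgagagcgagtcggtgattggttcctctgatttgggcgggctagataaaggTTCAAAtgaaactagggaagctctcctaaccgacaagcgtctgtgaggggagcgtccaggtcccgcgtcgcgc
*Ccnb2* (chr9:70421505-70421804, minus strand): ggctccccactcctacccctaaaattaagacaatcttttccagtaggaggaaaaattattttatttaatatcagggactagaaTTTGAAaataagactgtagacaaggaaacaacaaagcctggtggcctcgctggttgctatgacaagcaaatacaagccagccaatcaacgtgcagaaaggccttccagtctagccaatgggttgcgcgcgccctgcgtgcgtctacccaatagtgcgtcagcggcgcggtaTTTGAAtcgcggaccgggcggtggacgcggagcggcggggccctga
The CHR word of *Cdc20* begins at -18. *Ccnb2* has words at -167 and 5, and *Top2a* at -179, -140, -120 and -23. *Cenpe*, *Birc5* and *Ccnb1* are the mitosis genes whose window holds no CHR word. A match describes these letters and was not tested as a binding site.

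All 39 genes were expressed in both genotypes and passed the filter on low counts, with 81 to 3599 counts per culture. Mean levels per length ran from 0.809 RPKM for *Mcm10*, a factor that acts when origins fire, to 24.6 RPKM for *Pcna*, with a median of 6.57 RPKM over the 39 genes. After *Pcna* came *Rrm2* at 18.3 RPKM, *Cdc20* at 16.6 RPKM, *Mcm4* at 12.3 RPKM and *E2f1* at 12.2 RPKM. At the other end, *Cdc6* had 1.05 RPKM and *Cenpf*, which encodes a large kinetochore protein, 1.34 RPKM. As the plot of levels shows, the range of the 9 cultures covers several neighbouring ranks in this order for most genes. The 39 genes together took 0.1151 to 0.1423% of all counts in WT cultures and 0.0886 to 0.1381% in Dp1Tyb cultures. The highest culture was between 1.24 times (*Gins2*) and 2.24 times (*Ccnb2*) the lowest for a given gene. The median SD within a genotype was 0.24 on the log2 scale for the 39 genes and 0.22 for all genes tested.

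**Figure D1:**
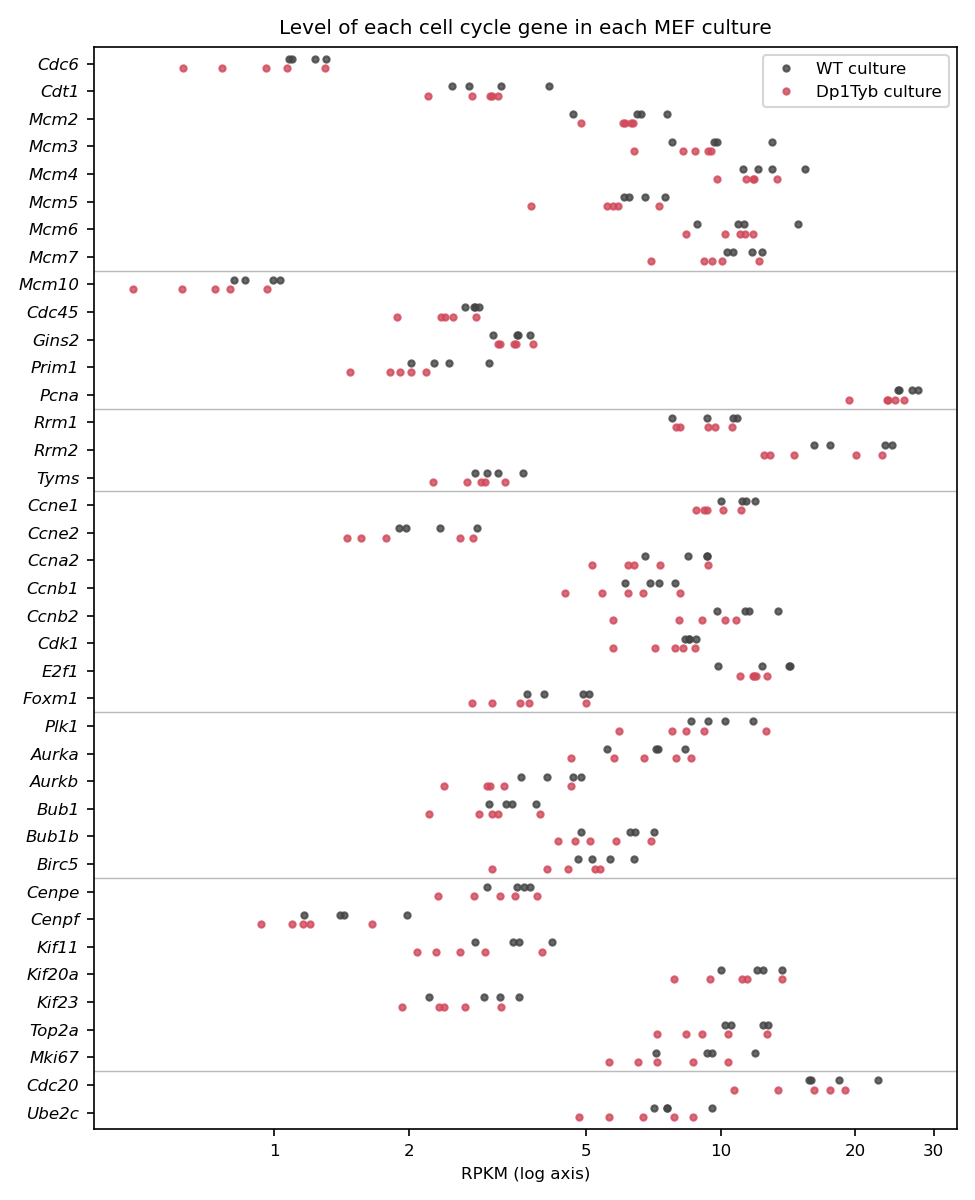
Level of each of the 39 genes in RPKM (log axis) in the 4 WT (grey) and 5 Dp1Tyb (red) cultures, 1 point per culture, with lines between the groups of genes by role. WT and Dp1Tyb points overlap in every gene, and the lowest point is a Dp1Tyb culture in most.

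Between the genotypes, 0 of the 39 genes was called by edgeR's quasi-likelihood test over 14567 genes at a Benjamini-Hochberg adjusted p below 0.05, while 0.165% of all genes tested were called in either direction. DESeq2 likewise called 0 of them, against 0.415% of all genes with an adjusted p. The lowest adjusted p of the 39 was 0.9997 by edgeR. At an unadjusted p below 0.05, 1 of the 39 genes, *Prim1*, was lower in Dp1Tyb by either tool. Over all 14567 genes tested this held for 1.77% by edgeR and for 269 genes by DESeq2. The fitted log2 fold change was below 0 in 38 of the 39 genes, all measured in the same 9 cultures, and in 49.0% of all genes tested. In 0 of them did every Dp1Tyb culture lie below every WT culture, as was so for 0.673% of all genes. Neither the 0 calls nor this lack of separation sets the 39 genes apart, because these shares of all genes are so low. The median log2 fold change was -0.12 over the 19 S-phase genes, -0.20 over the 20 mitosis genes and 0.0027 over all genes tested. Standard errors ran from 0.0787 to 0.219 with a median of 0.149. For all 39 genes the 95% interval lay above a fall of 2-fold, and for 25 of them above a fall of 1.5-fold. Without Dp1Tyb replicate 1, 11 of the 39 genes had an unadjusted p below 0.05 by edgeR, and without Dp1Tyb replicate 4, 0 had one. The share of all genes at this threshold is not given here for those fits, so these counts have no background beside them. The median log2 fold change without Dp1Tyb replicate 4 was -0.063 over the S-phase genes, -0.116 over the mitosis genes and -0.101 over all 39. In RNA from whole cultures, fewer cycling cells and less RNA per cycling cell cannot be told apart.

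**Figure D2:**
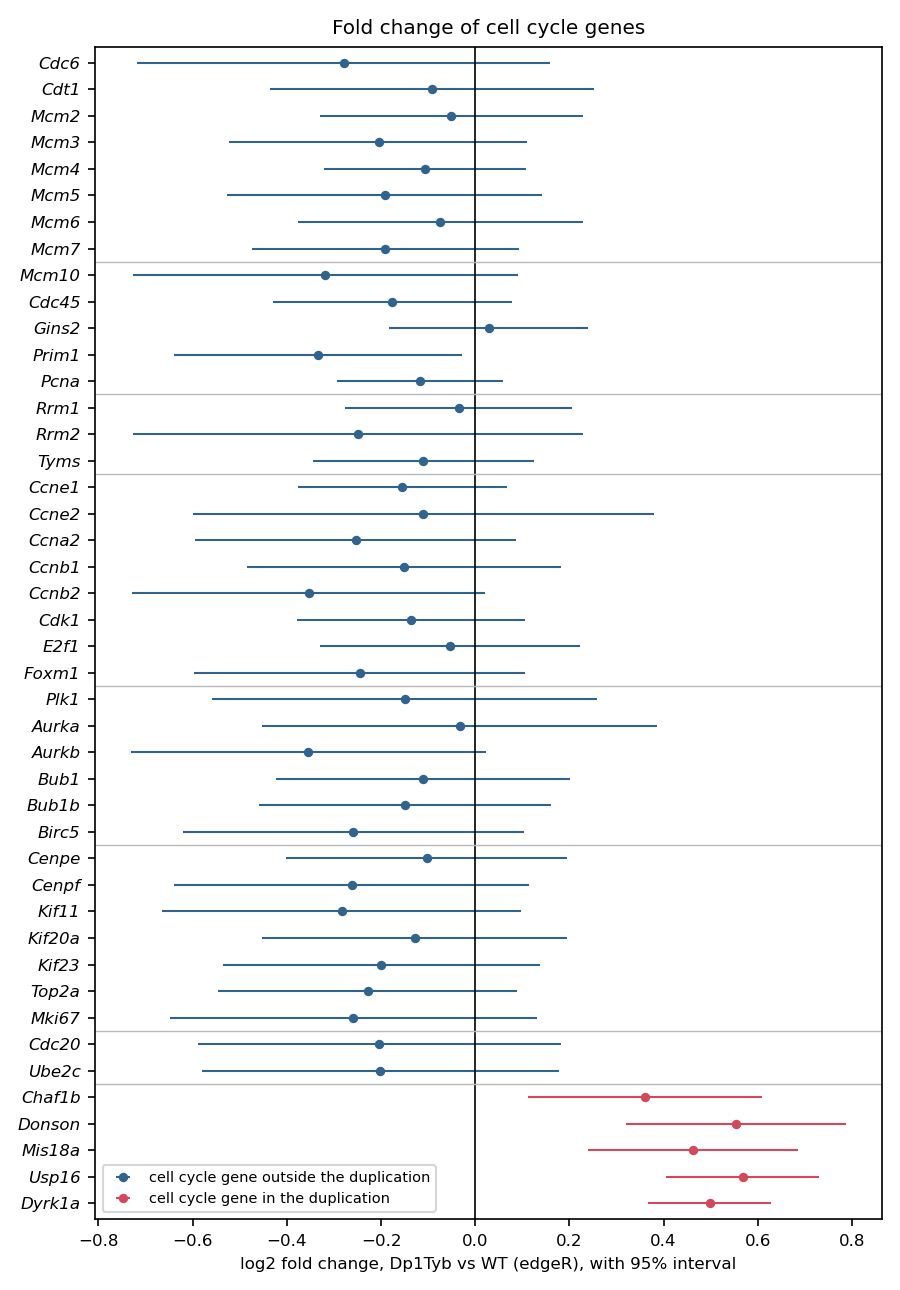
Log2 fold change of Dp1Tyb vs WT by edgeR with its 95% interval for the 39 genes by role (blue) and for 5 cell cycle genes inside the duplicated region (red). 38 of the 39 blue points lie below 0 with intervals that cover 0 except that of *Prim1*, and all 5 red points lie above 0.

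The 8 licensing genes, which load the helicase, all had a fitted fold change below 0 with a median of -0.15, from -0.28 for *Cdc6* to -0.05 for *Mcm2*. *Mcm4* (ENSMUSG00000022673, chromosome 16, 15623897 to 15637400, minus strand), a helicase subunit and the most highly expressed of them, had 1384, 1076, 1221 and 1149 normalised counts in WT replicates 1 to 4. In Dp1Tyb replicates 1 to 5 it had 1242, 1174, 1090, 962 and 1139 normalised counts. WT replicate 1 was highest and Dp1Tyb replicate 4 lowest, with the other 7 cultures mixed between them. Its log2 fold change was -0.11 (standard error 0.0956, exact permutation test, two-sided, p = 0.357). *Cdc6* (ENSMUSG00000017499, chromosome 11, 98907801 to 98923940, plus strand), which recruits the helicase to the origin, had 170.3, 152, 168 and 149 normalised counts in WT and 176, 154, 106, 89.2 and 134 in Dp1Tyb cultures. Dp1Tyb replicate 1 was above all WT cultures and replicates 3 to 5 were below all of them. The log2 fold change of this gene was -0.28 (standard error 0.196, exact permutation test, two-sided, p = 0.198). Without Dp1Tyb replicate 4 the value was -0.168 for *Cdc6* and -0.056 for *Mcm4*, and without WT replicate 1 it was -0.032 for *Mcm4*. The other helicase subunits had log2 fold changes of -0.21 (*Mcm3*), -0.19 (*Mcm5*), -0.07 (*Mcm6*) and -0.19 (*Mcm7*), and *Cdt1*, the partner of CDC6 in loading, one of -0.09. The 6 genes with an E2F word in their window spanned -0.28 (*Cdc6*) to -0.07 (*Mcm6*).

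Genes of origin firing and of the fork included both the 1 gene with an unadjusted p below 0.05 and the 1 gene with a fold change above 0. *Prim1* (ENSMUSG00000025395, chromosome 10, 128015168 to 128030037, plus strand), the catalytic subunit of the primase that starts each new strand, had 292.4, 208.3, 248.5 and 233.4 normalised counts in WT and 218.1, 203.4, 208.0, 156.4 and 188.4 in Dp1Tyb cultures. The highest of the Dp1Tyb cultures, replicate 1, was above the lowest WT culture, replicate 2, so the groups overlapped by this pair, and the remaining Dp1Tyb cultures were below every WT culture. For this gene the log2 fold change was -0.33 with a standard error of 0.137 (edgeR unadjusted p = 0.0352, adjusted p = 0.9997). By the exact permutation test, two-sided, over all relabelings of the 9 cultures its p was 0.0317, not corrected for the 39 genes, and within the second set 0.0571 (exact permutation test, two-sided). *Pcna* (ENSMUSG00000027342, chromosome 2, 132249162 to 132253314, minus strand), the sliding clamp of the polymerases, had 1655, 1601, 1571 and 1702 normalised counts in WT and 1527, 1562, 1644, 1269 and 1524 in Dp1Tyb cultures. Dp1Tyb replicate 4 stood lowest and the other 8 cultures lay close together. The fold change on the log2 scale was -0.12 (standard error 0.0787, exact permutation test, two-sided, p = 0.103). It was -0.061 without Dp1Tyb replicate 4. Among the helicase cofactors, the log2 fold change was -0.32 for *Mcm10*, -0.18 for *Cdc45* and 0.03 for *Gins2*, with standard errors of 0.183, 0.113 and 0.0939. Reads that *Pcna* shares with its processed copies *Pcna-ps1* and *Pcna-ps2* may have been lost, because the counting kept only reads that map to 1 place.

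Of the 3 genes that supply deoxynucleotides, *Rrm2* (ENSMUSG00000020649, chromosome 12, 24708241 to 24714146, plus strand), the regulatory subunit of ribonucleotide reductase, varied most. It had 1117, 1721, 1744 and 1286 normalised counts in WT and 1441, 1748, 923, 976 and 1084 in Dp1Tyb cultures. Dp1Tyb replicate 2 was the highest of all 9 cultures and Dp1Tyb replicate 3 the lowest, so both extremes fell in 1 genotype. Its log2 fold change was -0.25 (standard error 0.213, exact permutation test, two-sided, p = 0.278). It was -0.407 without Dp1Tyb replicate 2, and -0.161, -0.163 and -0.155 without Dp1Tyb replicate 3, WT replicate 2 and WT replicate 3. *Rrm1*, the large subunit of the same enzyme, had a log2 fold change of -0.04, and *Tyms*, which makes thymidylate, one of -0.11. The pattern of *Rrm2* over the cultures therefore differed in its lowest and highest culture from that of *Rrm1*, whose lowest culture was WT replicate 2 and highest WT replicate 4.

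The 8 cyclins, kinase and transcription factors had a median log2 fold change of -0.15, from -0.35 for *Ccnb2* to -0.05 for *E2f1*. *E2f1* (ENSMUSG00000027490, chromosome 2, 154559407 to 154569892, minus strand), which activates S-phase genes, had 774, 1199, 1171 and 1034 normalised counts in WT and 899, 1030, 993, 1032 and 1075 in Dp1Tyb cultures. WT replicates held both the lowest value, in replicate 1, and the highest, in replicate 2, and all Dp1Tyb cultures lay between them. The log2 fold change of this gene was -0.05 (standard error 0.123, exact permutation test, two-sided, p = 0.833). Without WT replicate 1 it was -0.172 and without Dp1Tyb replicate 1 it was -0.013, and without WT replicate 2 or WT replicate 3 it was 0.019 or 0.006. *Ccnb2* (ENSMUSG00000032218, chromosome 9, 70407692 to 70421547, minus strand), a B-type cyclin that partners CDK1, had 442, 400.1, 537 and 459.7 normalised counts in WT and 428, 339, 369, 240.1 and 422 in Dp1Tyb cultures. Dp1Tyb replicate 4 was far below the rest, and replicates 2 and 3 were also below every WT culture, while replicates 1 and 5 were above WT replicate 2. For this gene the log2 fold change was -0.35 (standard error 0.167, exact permutation test, two-sided, p = 0.0635). The other log2 fold changes were -0.15 for *Ccnb1*, -0.14 for *Cdk1*, the mitotic kinase, -0.25 for *Ccna2*, the cyclin of S and G2 phases, and -0.25 for *Foxm1*, a transcription factor of G2 genes. The E-type cyclins *Ccne1* and *Ccne2*, which act at entry into S phase, had -0.15 and -0.11. The pseudogenes *Ccnb1-ps*, *Ccnb2-ps* and *Tyms-ps* leave the counts of their parent genes uncertain in the same way as for *Pcna*.

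Among the 6 kinases and spindle checkpoint genes, *Plk1* (ENSMUSG00000030867, chromosome 7, 122159439 to 122169873, plus strand), which acts from mitotic entry to cell division, had 562, 503, 678 and 545 normalised counts in WT and 717, 505, 455, 356 and 543 in Dp1Tyb cultures. The Dp1Tyb cultures held both the highest value, in replicate 1, and the lowest, in replicate 4. The fold change on the log2 scale was -0.15 (standard error 0.182, exact permutation test, two-sided, p = 0.413). That value was -0.295 without Dp1Tyb replicate 1, -0.043 without Dp1Tyb replicate 4 and -0.058 without WT replicate 3. *Aurkb* (ENSMUSG00000020897, chromosome 11, 69045647 to 69051664, plus strand), the kinase that corrects attachments between chromosomes and spindle, had 343, 279.8, 374 and 318 normalised counts in WT and 352, 246, 235, 193 and 259 in Dp1Tyb cultures. Dp1Tyb replicates 2 to 5 were below every WT culture, and replicate 1 was above all WT cultures but replicate 3. Its log2 fold change, the furthest below 0 of the 39, was -0.35 (standard error 0.168, exact permutation test, two-sided, p = 0.0794). The values were -0.26 for *Birc5*, whose protein survivin works in a complex with Aurora B, -0.03 for *Aurka*, the spindle pole kinase, and -0.11 and -0.15 for the checkpoint genes *Bub1* and *Bub1b*.

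The 7 genes of motors, kinetochore and chromosome structure had a median log2 fold change of -0.23. *Kif20a* (ENSMUSG00000003779), a kinesin needed for the final separation of daughter cells, had 1347, 1159, 1552 and 1381 normalised counts in WT and 1539, 1328, 1090, 932 and 1333 in Dp1Tyb cultures. Dp1Tyb replicate 4 was lowest, and Dp1Tyb replicate 1 was just under the highest culture, WT replicate 3. Its log2 fold change was -0.13 (standard error 0.145, exact permutation test, two-sided, p = 0.381). It was -0.04 without Dp1Tyb replicate 4, -0.058 without WT replicate 3, -0.084 without Dp1Tyb replicate 3, -0.197 without WT replicate 2 and -0.212 without Dp1Tyb replicate 1. *Kif11* (ENSMUSG00000012443, chromosome 19, 37376403 to 37421859, plus strand), the kinesin that pushes spindle poles apart, had 778, 559, 665 and 698 normalised counts in WT and 766, 471, 516, 426 and 593 in Dp1Tyb cultures. The first replicate was the highest in each genotype, and Dp1Tyb replicates 2 to 4 were below every WT culture. The log2 fold change of this gene was -0.28 (standard error 0.17, exact permutation test, two-sided, p = 0.143). Log2 fold changes were -0.26 for *Mki67*, the gene of the proliferation antigen Ki-67, -0.23 for *Top2a*, which untangles DNA, -0.26 for *Cenpf* and -0.10 for *Cenpe*, both of the kinetochore, and -0.20 for *Kif23*, a motor of cell division. For the APC/C the fold changes were -0.20 for *Cdc20*, its activator, and -0.20 for *Ube2c*, its ubiquitin-conjugating enzyme. *Cdc20* (ENSMUSG00000006398, chromosome 4, 118432901 to 118437352, minus strand) had 736, 918, 1098 and 789 normalised counts in WT and 917, 900.3, 668, 546 and 812 in Dp1Tyb cultures (exact permutation test, two-sided, p = 0.349), with WT replicate 3 highest and Dp1Tyb replicate 4 lowest. Its log2 fold change was -0.083 without WT replicate 3 and -0.103 without Dp1Tyb replicate 4.

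Reads of overlapping genes on opposite strands can be told apart only where the counting used strand, and the strand option was not given in the sources used here, although the libraries were stranded. This concerns *Mcm7* (with *Cops6* and *Ap4m1*), *Cdc45* (*Ufd1*), *Gins2* (*Gse1*), *Ccne2* (*Ints8*), *Ccna2* (*Exosc9*), *Kif20a* (*Cdc23*) and *Cdc20* (*Elovl1*).

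A few cultures held the lowest or the highest level of most of the 39 genes. Dp1Tyb replicate 4 had the lowest level in 33 of the 39 genes, 13 of the 19 S-phase genes and 20 of the 20 mitosis genes, and in 8.33% of all genes tested. The exceptions were *Mcm2*, *Gins2* and *Rrm1*, lowest in WT replicate 2, *Rrm2*, *Ccne1* and *E2f1*. The highest level was in Dp1Tyb replicate 1 for 12 genes, in WT replicate 1 for 11, in WT replicate 3 for 10 and in WT replicate 4 for 3. With each gene centred on its mean over WT cultures, the median of the 20 mitosis genes on the log2 scale was 0.032, -0.184, 0.159 and 0.031 in WT replicates 1 to 4. In Dp1Tyb replicates 1 to 5 it was 0.156, -0.163, -0.330, -0.594 and -0.078. WT replicate 2 was lower than Dp1Tyb replicates 1, 2 and 5, and replicate 4 of Dp1Tyb, at 0.663 times the WT mean, was lowest. For the 19 S-phase genes the medians were 0.122, -0.093, 0.041 and -0.010 in WT and 0.028, -0.034, -0.179, -0.408 and -0.098 in Dp1Tyb cultures. The order at the bottom was the same, with Dp1Tyb replicates 4 and 3 lowest in both groups of genes, and the S-phase genes spread less. SDs over cultures were 0.0902 in WT and 0.169 in Dp1Tyb for the S-phase genes and 0.143 and 0.280 for the mitosis genes. In Dp1Tyb replicate 4 the fibroblast markers summed to 7553 RPKM, the highest of the 9 cultures, and the macrophage and muscle sums were inside the range of the other cultures. As medians relative to the WT mean on the log2 scale, its fibroblast markers stood at 0.238, against 0.324 in Dp1Tyb replicate 3. Its muscle markers that passed the filter stood at 1.434, against at most 0.282 in WT and up to 3.561 in Dp1Tyb cultures. Without Dp1Tyb replicate 4, the difference between genotypes in the medians of the cell cycle genes was -0.086 in place of -0.153 for S-phase and -0.114 in place of -0.211 for mitosis genes.

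**Figure D3:**
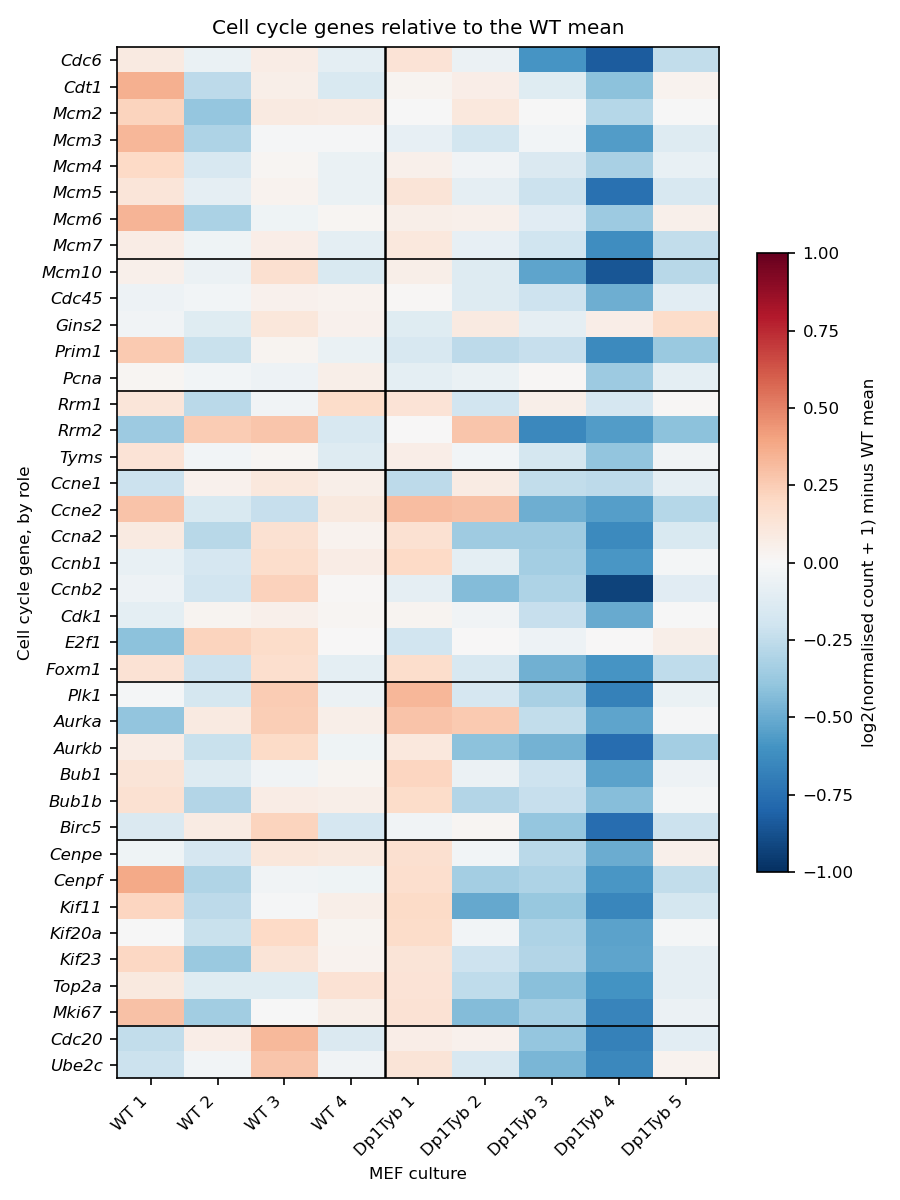
Log2 normalised count of the 39 genes (by role) in each culture minus the WT mean of that gene, with blue for lower and red for higher. Dp1Tyb replicate 4 is below the WT mean for 37 of the 39 genes, replicate 3 also for 37, and Dp1Tyb replicate 1 for 10.

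**Figure D4:**
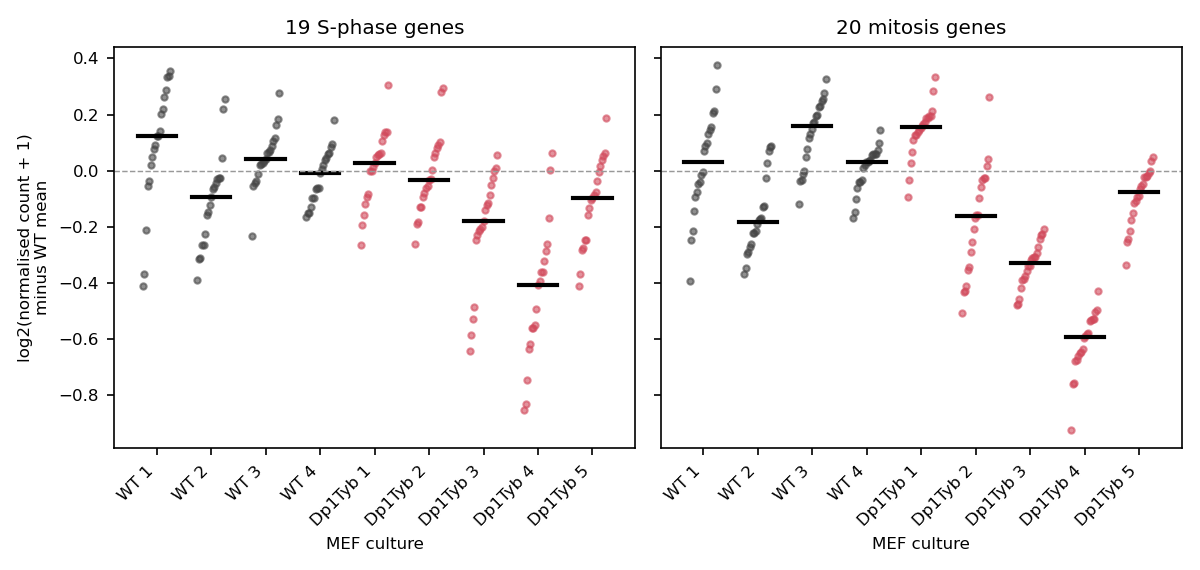
Log2 normalised count minus the WT mean for the 19 S-phase and the 20 mitosis genes in each culture (1 point per gene), with black bars for the median. The median of Dp1Tyb replicate 4 is lowest in both panels, at -0.408 and -0.594.

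Levels were also compared between the sets of cultures. With genotype in the model, 34 of the 39 genes were lower in the second set than in the first, against 49.9% of all genes tested. By edgeR 0 of the 39 were called between sets, as were 0.00% of all genes, and 7 had an unadjusted p below 0.05, against 15.9% of all genes, so this share of the 39 was close to that of all genes. DESeq2 called 2 of them, against 3.14% of all genes. These were *Cenpf*, with a log2 fold change of -0.51 by edgeR (adjusted p = 0.143) and an adjusted p of 0.0092 by DESeq2, and *E2f1*, with 0.36 by edgeR (adjusted p = 0.195) and an adjusted p of 0.0456 by DESeq2. These 2 genes had the extreme set effects of the 39, in opposite directions. Within the second set, 35 of the 39 genes were lower in Dp1Tyb, against 49.8% of all genes. In the pair of cultures of the first set, which allows no test, 15 were lower, 10 of the S-phase and 5 of the mitosis genes, against 51.9% of all genes. The difference between genotypes in the median of the mitosis genes was -0.293 in the second set and 0.123 in the first, so its sign differed between the sets, and whether the sets differ was not tested. For the S-phase genes it was -0.159 and -0.094.

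Other mitosis and replication genes had medians near those of the 39 genes, and G1 genes a median nearer 0. Of 51 other mitosis genes, such as *Tpx2* and *Ndc80*, 50 had a log2 fold change below 0, all but *Cks1b*, with a median of -0.20. Of 40 other replication genes, 31 were below 0, with a median of -0.12. Of 33 genes that control G1 phase, before replication starts, such as the D-type cyclins and the RB family, 18 were below 0, with a median of -0.03. None of these 124 genes was called by edgeR or by DESeq2, which does not set them apart where 0.165% and 0.415% of all genes were called. At an unadjusted p below 0.05 by edgeR, 6 replication genes were lower, as were 1 of the mitosis and 1 of the G1 genes, against 1.77% of all genes. DESeq2 gave 5, 1 and 1, against 269 of the 14567 genes tested. The replication gene with the smallest p was *Pole2*, a subunit of the leading-strand polymerase, with 159.5, 146, 144 and 139 normalised counts in WT and 116, 101, 116, 69.4 and 108 in Dp1Tyb cultures. Every Dp1Tyb culture was below every WT culture, and its log2 fold change was -0.53 (edgeR unadjusted p = 0.0097, adjusted p = 0.984, standard error 0.164). Such separation held for 3 of the 40 replication genes, against 0.673% of all genes tested. The other two were *Rpa3*, of the complex that coats single-stranded DNA, at -0.32, and *Lig1*, the ligase that joins lagging-strand fragments, at -0.29, both named after their values were seen. *Fbxo5*, an inhibitor of the APC/C, had the smallest p of the mitosis genes, with a log2 fold change of -0.42 (edgeR unadjusted p = 0.0371, adjusted p = 0.9997), and *Cdkn2c*, an inhibitor of CDK4 and CDK6, that of the G1 genes, with -0.46 (edgeR unadjusted p = 0.0254, adjusted p = 0.9997). Dp1Tyb replicate 4 was lowest in 43 of the 51 mitosis, 23 of the 40 replication and 6 of the 33 G1 genes. Of the windows found for them, 32 of 43 (74.4%) held a CHR word among the other mitosis genes and 12 of 32 (37.5%) an E2F word among the other replication genes.

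**Figure D5:**
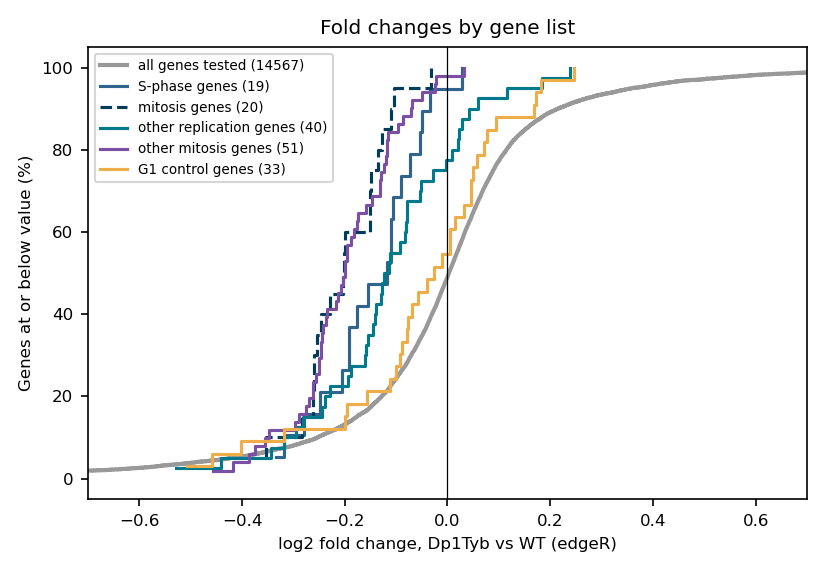
Share of genes (%) with a log2 fold change of Dp1Tyb vs WT at or below the value on the x axis, for the S-phase and mitosis genes, the other lists and all 14567 genes tested. The curve of the mitosis genes crosses 50% near -0.20, that of the S-phase genes near -0.12 and that of all genes near 0.

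Cell cycle genes inside the duplicated region behaved otherwise. Of 5 such genes, all had every Dp1Tyb culture above every WT culture, as had 0.686% of all genes tested. EdgeR called 2 of the 5 as higher, against 0.165% of all genes, and DESeq2 called 4, against 0.415% called in either direction. Without WT replicate 2, 3 or 4 or Dp1Tyb replicate 5, edgeR called 0 of them, all 5 with an unadjusted p below 0.05, and over all genes it then called 2, 2, 8 and 3 in place of 24. *Usp16*, a histone deubiquitinase needed for mitosis, rose from 1709 ± 94.8 (SD, n = 4) to 2534 ± 188 normalised counts (SD, n = 5), with a log2 fold change of 0.57 and an edgeR adjusted p of 0.0183. *Dyrk1a*, a kinase that promotes assembly of the DREAM repressor of cell cycle genes, rose from 1313 ± 70.6 (SD, n = 4) to 1855 ± 50.8 (SD, n = 5), with a log2 fold change of 0.50 and an edgeR adjusted p of 0.0120. *Donson*, a factor of replication origins and forks that overlaps *Son* on the opposite strand, had a log2 fold change of 0.55 (edgeR adjusted p = 0.163) and *Mis18a*, which helps load the centromere histone, one of 0.46 (edgeR adjusted p = 0.312). *Chaf1b*, a subunit of the assembly factor that places histones behind the fork, had 0.36 (edgeR adjusted p = 0.980) and was the 1 gene of the 5 that DESeq2 did not call. In Dp1Tyb replicate 4 the median of these 5 genes was 0.475 above the WT mean on the log2 scale, and in the other Dp1Tyb cultures it was 0.484 to 0.544.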

How the data were processed

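RNA from 9 cultures, 4 WT and 5 Dp1Tyb, was sequenced by the authors as stranded paired-end mRNA libraries. The deposited counts are whole reads per Ensembl gene, without normalisation, which per the labels and the paper's methods the authors made with Trim Galore, TopHat2 2.0.12 on GRCm38 and HTSeq, keeping reads that map to 1 place. The deposited size-factor-scaled counts and the table of fold changes, p-values and adjusted p-values from DESeq2 1.6.3 were not used.

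Of 43629 genes, 42462 were matched to GENCODE M21, 24467 had a count in some culture and 14567 passed edgeR's filter on low counts. All 39 genes matched. EdgeR 4.0.16 (TMM, quasi-likelihood test, two-sided, genotype alone) in R 4.3.3 gave fold changes and Benjamini-Hochberg adjusted p-values over all genes tested. Standard errors were derived from these as the absolute log2 fold change over the square root of the F statistic of the test. The 95% intervals were built from those standard errors with the t distribution. The fit was also run on simulated data, with larger changes than those of the 39 genes. That run cannot say whether changes of their size would be called. Normalised counts are TMM-scaled, with 1 added before log2. RPKM used the total counts and the length of all exons. Exact permutation tests relabelled the cultures. DESeq2 1.42.0, other scalings and filters, the culture set, a replicate block, the second set alone and each culture left out were alternatives, and those for the duplicated and the other lists were chosen after seeing the data. Total counts of 24804539 to 30009361 gave each of the 39 genes at least 81 counts in every culture. Reads carry no molecular identifiers, so counts overstate independent molecules.

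Genes, lists and tests were chosen with earlier results of these data known. All 39 genes are named. Values in every culture are given for the gene of highest mean RPKM and of largest absolute fold change in each role. Of the other lists, called genes are named or else the gene with the smallest p, and all 5 duplicated genes. Promoter windows came from a RefSeq table of GRCm38.p6. Other steps ran in Python 3.11.15 (pandas 2.3.3, numpy 2.4.6, matplotlib 3.10.9, scipy 1.17.1).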

Additional observations from a re-analysis of the deposited data

Results flagged for a closer look

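In 3 of the 92 groups of cultures examined (1 gene in 1 genotype each), a single culture stood apart from the others by Dixon's criterion, which marks about 1 in 20 groups by chance. *Mcm2*, a helicase subunit, had 926.1 normalised counts in Dp1Tyb replicate 4 and 1126 to 1215 in the other Dp1Tyb cultures, so that the gap took 0.72 of the range on the log2 scale. *Chaf1b*, inside the duplicated region, had 232.2 normalised counts in WT replicate 2 and 282.5 to 291.2 in the other WT cultures, a gap of 0.865 of the range on the log2 scale. *Donson*, in the same region, had 134.7 in WT replicate 2 and 157.0 to 160.3 in the others, a gap of 0.882 of the range on the log2 scale.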

How the results depend on the processing

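With one choice changed at a time, 0 of the 39 genes was called between genotypes under every alternative, and none of the other replication, mitosis and G1 genes was called. Between 34 (without WT replicate 1) and 39 of the 39 genes were lower in Dp1Tyb. Leaving out each culture in turn moved the median log2 fold change between -0.187 and -0.063 for S-phase genes and between -0.292 and -0.116 for mitosis genes. The upper ends came without Dp1Tyb replicate 4, when 36 genes were lower and 0 had an unadjusted p below 0.05 (as without WT replicate 3 or 4), and the lower end for mitosis genes came without Dp1Tyb replicate 1, when 11 had one. Shares of all genes at that threshold are not given here for these fits. No scaling moved the median of all genes by over 0.02. The log2 fold change of *E2f1*, -0.05 with all cultures, was 0.019 without WT replicate 2 and 0.006 without WT replicate 3, and between -0.172 and 0.019 over all cultures left out. The cause was not tested.

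Of the 5 duplicated genes, 2 were called with all cultures, 4 by DESeq2, 0 in the second set alone and between 0 and 2 with a culture left out. None was called without WT replicate 2, 3 or 4 or Dp1Tyb replicate 5, and 1 without WT replicate 1 or Dp1Tyb replicate 4. All 5 had an unadjusted p below 0.05 each time. Between sets, DESeq2 called 2 of the 39 genes in place of 0, and edgeR called 0 with any culture left out. Without a culture of the first set, its lone culture is assumed to vary like the others.

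Each culture came from a different embryo, and replicate numbers were not taken to pair the cultures. Deviations of same-numbered cultures correlated between 0.03 and 0.732 with a mean of 0.348, against a mean of -0.089 for other pairs, and 1 of 4 WT cultures correlated best with its own number. With the replicate block, 39 of the 39 genes were lower, 5 had an unadjusted p below 0.05 and 0 were called, and 0 of the 5 duplicated genes and 0 of all genes were called. The share of all genes with such an unadjusted p is not given here for this fit. DESeq2 with the block called 2 of these 5 and 85 of all genes. By edgeR the medians with the block were -0.134 and -0.249.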
